A study of Mus musculus with 6 samples.

Results

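The miR-30 family was read here as 5 mature miRNAs, mmu-miR-30a, mmu-miR-30b, mmu-miR-30c, mmu-miR-30d and mmu-miR-30e. Members were taken by name, as the mouse assays for the main strand of each miRNA, and make up 5 of the 750 miRNA assays measured. The samples were 2 subsets of monocytes, the classical Ly6C high and the non-classical Ly6C low cells, taken freshly from DBA/1 mice, an inbred strain. Each of 3 mice gave 1 sample of each subset, so that 3 Ly6C high and 3 Ly6C low samples were compared. The labels name no treatment, and the age and sex of the mice and the purity of the subsets are not given in the sources used here.

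miRNAs were quantified from 10 ng of total RNA per sample by stem-loop reverse transcription, preamplification and TaqMan PCR on 2 multi-well cards. The readout is the threshold cycle (Ct), which falls by 1 cycle for each doubling of template, and a reaction without signal is listed at 40. All 5 assays are among the 375 miRNA assays of the first card, called card A. Expression is given as −ΔCt, the Ct of the small nuclear RNA U6 on the same card minus the Ct of the miRNA, which is a log2 scale on which 0 equals the U6 signal. A Ct under 35 was taken as well measured. As the data come from bulk samples, fewer expressing cells and less RNA per cell cannot be told apart.

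miR-30 miRNAs are conserved in vertebrates and are found in many tissues. Like other miRNAs they pair through the seed near their 5′ end with messenger RNAs and lower the output of these targets, so that members with a common seed can act on overlapping targets. Known targets of the family include Snai1, a transcription factor of epithelial-mesenchymal transition, Becn1, which acts in autophagy, and Ctgf, a secreted factor linked to fibrosis. Ly6C high monocytes are recruited to inflamed tissue, whereas Ly6C low monocytes patrol the vessel wall.

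The 5 miRNAs come from 6 genes, which the RefSeq annotation of GRCm38.p6 places as 3 neighbouring pairs, Mir30a with Mir30c-2, Mir30b with Mir30d, and Mir30c-1 with Mir30e. The last pair lies within the span of the protein-coding gene Nfyc, where the annotation also lists Mir30f at the place of Mir30e. Mature sequences were found in the RefSeq table for 3 of the 5 members, and a search of its 1679 mature miRNAs for the same seed returned 1 other, mmu-miR-384-5p. They are shown because the assays have to separate near-identical molecules, with the seed (bases 2 to 8) in capitals. In GRCm38.p6, miR-30a-5p lies at chr1:23272274-23272295 (+ strand), miR-30e-5p at chr4:120772660-120772681 (− strand) and miR-384-5p at chrX:105344332-105344354 (− strand). miR-30c-5p is encoded identically at chr1:23291714-23291736 (+ strand) and chr4:120769584-120769606 (− strand), so its assay cannot tell the 2 genes apart.
mmu-miR-30a-5p: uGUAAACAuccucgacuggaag
mmu-miR-30e-5p: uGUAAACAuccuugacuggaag
mmu-miR-30c-5p: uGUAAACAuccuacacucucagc
mmu-miR-384-5p: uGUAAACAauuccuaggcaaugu
miR-30a-5p and miR-30e-5p differ at 1 of 22 bases, C13U (base of miR-30a first, position counted from 1 at the 5′ end), and share their last 9 bases. miR-30c-5p shares its first 12 bases with both and differs from each at 5 of the 22 positions they have in common, all towards the 3′ end.

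The Ly6C high sample of mouse 1 stood apart on card A, and differences between subsets, tests and nearest patterns of the members are therefore also given without it. Over the 127 assays of this card that were tested, Spearman's rho between its Ct values and those of each other sample was 0.10 to 0.15, against 0.73 to 0.94 between the other 5 (a description, since assays are not independent). In this sample 69 of the 127 assays were undetected, against 9 to 23 in the others. Over all 375 miRNA assays of the card, which no filter had selected, 111 were detected in this sample, against 118 to 151 in the others. The leukocyte markers miR-223, miR-142-3p and miR-142-5p, found in myeloid cells or in blood cells more widely and not particular to monocytes, were all undetected in it, whereas all 3 were under 35 in each of the other 5 samples. Their summed level relative to U6 was 0 in this sample, 8.15 and 15.0 in Ly6C high monocytes of mice 2 and 3, and 2.68, 5.22 and 8.83 in the Ly6C low samples of mice 1, 2 and 3. miR-223 was the most abundant of them in all 5, while the human-named assay hsa-miR-223 of card B had no signal in any sample.

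Expression of mmu-miR-30c was close to that of U6 in all samples. In Ly6C high monocytes of mice 1, 2 and 3, −ΔCt was −1.30, −0.33 and −0.20, from a Ct of 23.97, 24.98 and 20.97. In Ly6C low monocytes it was −1.14, −0.20 and −0.05, from a Ct of 20.95, 20.97 and 21.97. Both samples of mouse 1 were the low ones of their subset, and the 2 subsets overlapped. The mean of the Ly6C high samples was −0.61 ± 0.60 (SD, n = 3) and that of the Ly6C low samples −0.47 ± 0.59 (SD, n = 3), which gives a difference of −0.14 (2-sided exact permutation test, p = 0.6, where 3 samples against 3 cannot go below 0.1). With Ly6C high monocytes of mouse 1 left out, the exact permutation p was 1.0, where 2 samples against 3 cannot go below 0.2.

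Within mice, the Ly6C high minus Ly6C low difference of mmu-miR-30c was −0.16, −0.12 and −0.15 in mice 1, 2 and 3. Raw Ct moved in parallel with U6. From Ly6C high to Ly6C low, U6 changed by −2.86, −3.89 and 1.15 cycles and mmu-miR-30c by −3.02, −4.02 and 1.00 cycles. The sign of these small values carries little weight. All 20 detected Ct values of the family lay within 0.1 cycles of a whole number. This is not particular to the family, as 99.6% of the 772 detected miRNA values of card A did so. The Ct values of U6 were 0.08 to 0.34 cycles away from a whole number. Within-mouse differences could therefore only take values about 1 cycle apart, and those of mmu-miR-30c were in each mouse the step nearest to 0. Without normalization the difference became 1.00 in mouse 3, and relative to the median Ct of the card it became 9.00 in mouse 1, where this median was at 40 in the Ly6C high sample.

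mmu-miR-30b was detected as well in all 6 samples. Its −ΔCt was −2.32, −0.32 and −1.20 in Ly6C high monocytes of mice 1, 2 and 3, from a Ct of 24.99, 24.98 and 21.97. The Ly6C low samples had −1.16, −0.23 and −1.06, from a Ct of 20.96, 20.99 and 22.98. The lowest value was that of the Ly6C high sample of mouse 1, mouse 2 was highest in both subsets, and the subsets overlapped. The mean of the Ly6C high samples was −1.28 ± 1.00 (SD, n = 3) and that of the Ly6C low samples −0.82 ± 0.51 (SD, n = 3), which gives a difference of −0.47 (2-sided exact permutation test, p = 0.4, and 0.8 with Ly6C high monocytes of mouse 1 left out).

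The within-mouse differences of mmu-miR-30b were −1.16, −0.09 and −0.14. In mice 2 and 3 they fell on the same step as those of mmu-miR-30c, and in mouse 1 they were 1 step lower. Its sign, too, turned with the scale, to 1.01 in mouse 3 without normalization and to 7.99 in mouse 1 relative to the card median. The Ct of mmu-miR-30b minus that of mmu-miR-30c was −0.01 and 0.02 in the Ly6C high and Ly6C low samples of mouse 2 and 0.02 in the Ly6C low sample of mouse 1. In Ly6C high monocytes of mice 1 and 3 and in the Ly6C low sample of mouse 3 it was 1.02, 1.00 and 1.01. The 2 assays thus read either the same cycle or 1 cycle apart, without a split by subset.

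**Figure D1:**
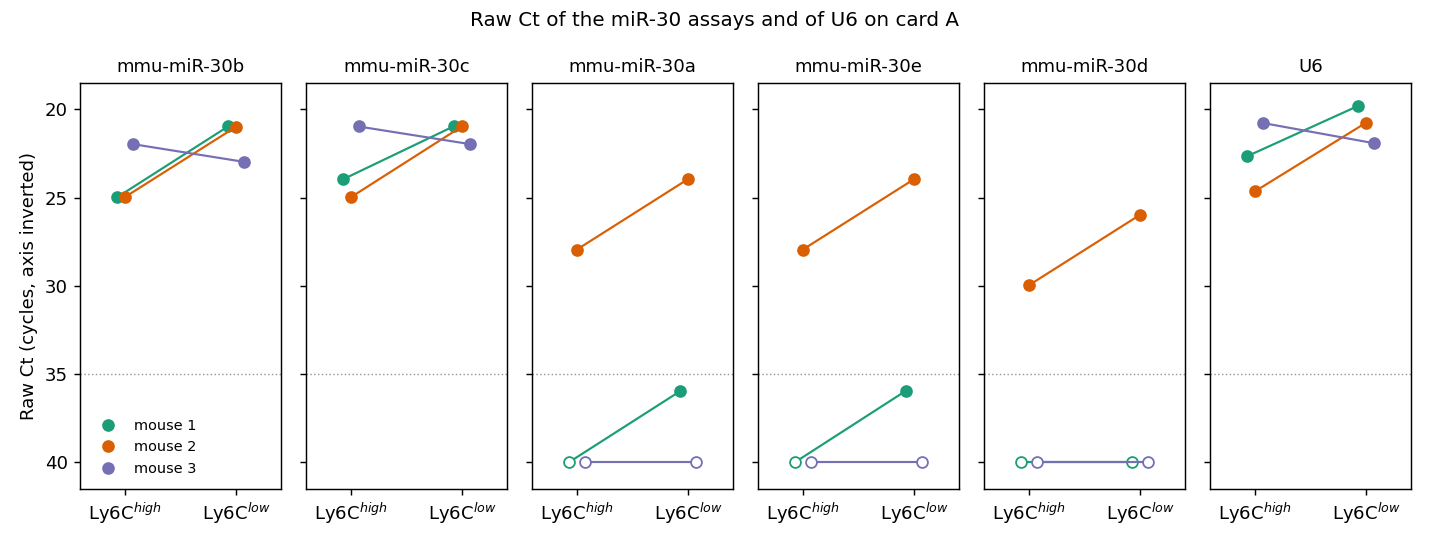
Raw Ct (cycles, inverted axis, so that more template is higher) of the 5 miR-30 assays and U6 on card A in Ly6C high and Ly6C low monocytes, with 1 line per mouse. Open circles are undetected reactions at 40 and the dotted line marks a Ct of 35. miR-30c runs parallel to U6 in all 3 mice and miR-30b in mice 2 and 3 (1.16 cycles apart from U6 in mouse 1), whereas miR-30a, miR-30e and miR-30d are under 35 only in mouse 2.

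To ask whether members differed between the subsets, all assays that were well measured in 3 or more of the 6 samples were fitted together with limma. Of the 5 members 2 passed this filter, mmu-miR-30b and mmu-miR-30c, through both subsets. The difference was −0.47 for mmu-miR-30b (standard error 1.43, 95% confidence interval −3.98 to 3.05, adjusted p = 0.985) and −0.14 for mmu-miR-30c (standard error 1.39, 95% confidence interval −3.55 to 3.26, adjusted p = 0.985). Neither exceeded the spread between samples. These intervals also contain differences of 3 cycles in either direction, but their width depended on the setting. With only assays under 35 in all 6 samples fitted, they were −2.51 to 1.58 for mmu-miR-30b and −2.07 to 1.78 for mmu-miR-30c. With undetected reactions as missing they were −2.44 to 1.51 and −1.93 to 1.64. Other settings gave wider intervals, such as −7.67 to 3.00 and −7.38 to 3.35 without normalization. All of these contain 0. With limma, 0 of the 2 members and 0 of all 201 tested assays (0%) passed an adjusted p of 0.05. At an unadjusted p under 0.05 there were 0 members and 2 assays in all (0.995%), miR-146a and miR-1905. The Ly6C high and Ly6C low values did not overlap for 0 members and for 11 of the 201 assays (5.47%).

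The sign of both differences changed with single samples and with the scale. Without this sample mmu-miR-30b differed by 0.054 (standard error 0.86) and mmu-miR-30c by 0.20 (standard error 0.83). Without both samples of mouse 1 the values were −0.12 and −0.14. When Ly6C low monocytes of mouse 3 were left out, mmu-miR-30c was at 0.06. Relative to the card median they were 1.99 and 2.32, and after quantile normalization mmu-miR-30c was at 0.22. The median over the tested card A assays moved further, from −1.14 with all samples to 0.89 without that sample. Relative to this median, mmu-miR-30b lay at 0.67 and mmu-miR-30c at 0.99 with all samples, and at −0.84 and −0.69 without it. With all samples kept, both were also negative with a floor of 35 cycles (−0.66 and −0.34) and with undetected reactions as missing (−1.42 and −1.10). The same held with quantile normalization, without a filter and with a Ct under 35 in all 6 samples. The other settings that kept all samples gave positive values.

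Set beside the other miRNAs of card A, the detected members lay below the median within-mouse difference of each mouse. In mouse 2, 118 assays were detected in both subsets, with a median within-mouse difference of 0.88 (quartiles −0.11 and 1.89), and 35 of them (29.7%) were within 0.1 of the value of mmu-miR-30c. In mouse 3 the median of 115 assays was 0.83 (quartiles −0.15 and 0.87), and 33 (28.7%) shared that step. In mouse 1 the median of 52 assays was 0.86 (quartiles −1.16 and 4.13), and 6 (11.5%) shared it. A value near 0 was therefore common in mice 2 and 3.

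Of the 42 card A miRNA assays detected in all 6 samples, mmu-miR-30c was the only 1 on this step in all 3 mice, which rests on the deviating sample of mouse 1. In mice 2 and 3 alone, 7 of the 42 were on it in both, mmu-miR-30c and mmu-miR-30b with let-7g, miR-24, miR-26a, miR-26b and miR-140. Over the 3 mice, the largest within-mouse difference of mmu-miR-30c of either sign, 0.16, was the smallest of the 42, and the median was 2.13, with mmu-miR-30b at rank 12 with 1.16. Over mice 2 and 3 the ranks were 6 for mmu-miR-30c (0.15) and 1 for mmu-miR-30b (0.14), beside a median of 0.91. The rankings and counts without mouse 1 were chosen after the data had been seen, and all of these rankings and counts are descriptions. As to sign, 8 of the 42 were lower in Ly6C high monocytes in all 3 mice, both members among them, and 8 were higher in all 3. In mice 2 and 3 alone, 11 were lower and 17 higher in both.

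**Figure D2:**
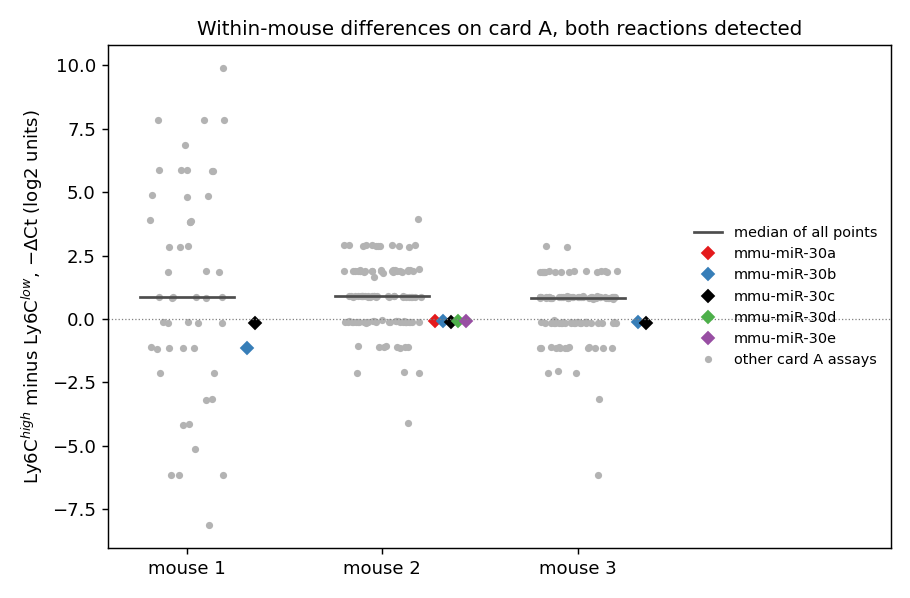
Ly6C high minus Ly6C low difference in −ΔCt (log2 units) within each mouse for all card A miRNA assays detected in both samples of that mouse (grey points, spread sideways for visibility), with their median as a line. Diamonds are the miR-30 members, which lie between −0.16 and −0.09 except miR-30b in mouse 1 at −1.16. Points fall in bands about 1 cycle apart.

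By the root mean square difference of centred −ΔCt over the 6 samples, the patterns nearest to mmu-miR-30c among the other 126 tested card A assays were miR-29b (0.47), mmu-miR-30b (0.50), miR-331-3p (0.60), let-7g (0.67) and miR-21 (0.68). For mmu-miR-30b they were miR-26a (0.47), mmu-miR-30c (0.50), miR-331-3p (0.51), miR-19a (0.57) and let-7e (0.58). The median distance was 3.13 and 3.08. All of these neighbours had a signal in all 6 samples, while assays with undetected reactions lie far away through the floor at 40. With Ly6C high monocytes of mouse 1 left out, a comparison added after the data were seen, the lists changed. Of its own 5 nearest patterns over 6 samples, mmu-miR-30c kept only miR-21, and mmu-miR-30b kept 0. miR-142-5p was nearest to mmu-miR-30c (0.019, median 1.02) and miR-194 to mmu-miR-30b (0.0094, median 0.98). The 5 nearest patterns to mmu-miR-30b lay between 0.0094 and 0.026. As Ct values lie close to whole cycles, distances this small mean the same steps in each sample, and the order among such neighbours carries little weight. The distance between mmu-miR-30b and mmu-miR-30c was 0.49 over these 5 samples, which put mmu-miR-30b at rank 8 for mmu-miR-30c and the latter at rank 20 for mmu-miR-30b.

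mmu-miR-30a was well measured only in mouse 2, with a Ct of 27.95 in Ly6C high and 23.96 in Ly6C low monocytes, or a −ΔCt of −3.30 and −3.19. It was undetected in both samples of mouse 3 and in the Ly6C high sample of mouse 1, and had a late signal at 35.97 in the Ly6C low sample of mouse 1. mmu-miR-30e gave nearly the same readings, 27.95 and 23.96 in mouse 2 and 35.94 in the Ly6C low sample of mouse 1, with no signal in the other 3 samples. The Ct of mmu-miR-30a minus that of mmu-miR-30e was 0.0017 and −0.0059 in the 2 samples of mouse 2 and 0.029 in that of mouse 1. How far each of these assays also reads the other molecule, which differs at the 1 base given above, was not tested.

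mmu-miR-30d was detected only in mouse 2, at a Ct of 29.98 in Ly6C high and 25.98 in Ly6C low monocytes (−ΔCt −5.32 and −5.22). The other 4 samples were at 40. It therefore differed in detection from mmu-miR-30b, whose gene is its neighbour, as mmu-miR-30a and mmu-miR-30e did from mmu-miR-30c. With a Ct under 35 in 2 of the 6 samples, these 3 miRNAs did not enter the filtered limma fit. In the fit without a filter they differed by −0.81 (mmu-miR-30a, standard error 5.28, adjusted p = 0.958), −0.81 (mmu-miR-30e, standard error 5.28, adjusted p = 0.958) and 0.54 (mmu-miR-30d, standard error 4.95, adjusted p = 0.960), values that rest on the floor at 40. With Ly6C high monocytes of mouse 1 left out of that fit, a setting added after the data were seen, the sign turned for mmu-miR-30a (1.22, standard error 6.07) and mmu-miR-30e (1.21, standard error 6.06), and mmu-miR-30d was at 2.23 (standard error 5.73).

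In mouse 2 itself, all 5 members had the same small difference between the subsets. It was −0.10 for mmu-miR-30a, −0.10 for mmu-miR-30d and −0.09 for mmu-miR-30e, beside −0.09 for mmu-miR-30b and −0.12 for mmu-miR-30c. Relative to the card median it lay between −1.03 and −1.00, and in raw Ct between −4.02 and −3.99. These 3 rest on 1 mouse and have no replicate.

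Detection in mouse 2 alone was seen for other assays of the same cards. On card A, 11 of the 375 miRNA assays (2.93%) were under 35 in both samples of mouse 2 and in no other sample, 3 of them members of the family. The same count was 1 for mouse 1 and 2 for mouse 3. On card B it was 44 of 375 (11.7%) for mouse 2, against 0 and 1. Of the small nuclear and nucleolar RNA controls on card A, snoRNA135 and U87 were under 35 in mouse 2 alone. snoRNA135 was read at 25.96 and 21.98 in the 2 samples of mouse 2 (Ly6C high first) and at 36.00 in the Ly6C low sample of mouse 1, with no signal elsewhere. U87 was detected only in mouse 2, at 28.97 and 24.99. Their differences within mouse 2 were −0.08 each, near those of the members. On card B the same controls read otherwise, with 0.87 for snoRNA135, and U87 was detected there only in Ly6C low monocytes of mouse 2, at 31.99. Of the 8 other card A miRNA assays seen in mouse 2 alone, 6 differed by 1.81 to 2.93 (miR-31 by 2.89), miR-467c by −0.14 and miR-350 by −1.11. The control Y1 differed by 1.93. snoRNA202 had 22.97 and 18.99 in mouse 2, 31.92 and 30.96 in mouse 1, and no signal in mouse 3, while on card B its only signal was at 33.98 in Ly6C low monocytes of mouse 2. The part of these differences between mice in the miR-30 values was not tested.

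Markers of other cells were examined for the same samples. Of the epithelial list, 3 to 6 of 9 assays were under 35 per sample. Its summed level relative to U6 was 1.62, 1.90 and 0.014 in Ly6C high monocytes of mice 1, 2 and 3 and 0.016, 1.08 and 0.010 in the Ly6C low samples. In mouse 2 the sum came from the card B assay hsa-miR-200b, at a Ct of 23.97 and 19.96, in the samples where mmu-miR-30a, mmu-miR-30d and mmu-miR-30e were well measured. On card A, mmu-miR-200b was at 40 and 27.09 in the same samples, miR-141 at 40 and 31.01 and miR-200a at 40 in both. miR-200c and miR-203 were detected in all 6 samples, with their highest −ΔCt of each subset in mouse 2. For miR-200c −ΔCt was −7.30, −5.37 and −7.24 in Ly6C high and −7.18, −6.22 and −8.04 in Ly6C low monocytes of mice 1, 2 and 3, and for miR-203 it was −9.33, −5.33 and −8.21, then −8.16, −7.22 and −8.05. In the Ly6C high sample of mouse 1 it came from mmu-miR-200b at 21.98. miR-205 and miR-429 were undetected in all 6 samples. The part of these signals in the miR-30 values was not tested.

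The lymphocyte list, too, had its highest sum of each subset in mouse 2. With 2 to 3 of 3 assays under 35 it summed to 0.206, 1.89 and 0.218 in Ly6C high and 0.915, 1.76 and 0.508 in Ly6C low monocytes, led by miR-181a, miR-150 and miR-342-3p in the former and by miR-150 in the latter. The other lists were low. Erythroid miR-451 was the only 1 of 3 assays under 35, in 5 samples, with a level of at most 0.0031, and miR-144 and miR-486 were undetected. Sums were at most 0.013 for the platelet and endothelial list (miR-126-3p most abundant), 0.061 for kidney and gut (miR-192), 7.9e-04 for muscle and 0.013 for liver (miR-122). The last 3 limits come from the deviating Ly6C high sample of mouse 1, and over the other 5 samples they were 0.016, 1.4e-04 and 4.6e-04.

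For the opposite strands of the miR-30 hairpins, card B carries 6 assays, and 5 of them, hsa-miR-30a-3p, mmu-miR-30b#, hsa-miR-30c-2#, hsa-miR-30d# and hsa-miR-30e-3p, were undetected in all samples. hsa-miR-30c-1# was detected only in mouse 2, at a Ct of 31.98 in Ly6C high and 29.99 in Ly6C low monocytes. Relative to U6 of card B the difference was 2.84, whereas the main strand differed by −0.12 in the same mouse on card A. Of these assays 5 carry a human name, and their match to the mouse strand was not tested. mmu-miR-384-5p, which has the seed of the family, gave a signal, at a Ct of 31.96, in 1 sample only, the deviating Ly6C high sample of mouse 1.

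In the order of Ct within samples, mmu-miR-30c and mmu-miR-30b came first, then mmu-miR-30a and mmu-miR-30e, then mmu-miR-30d. In mouse 2 the Ct of mmu-miR-30a was later than that of mmu-miR-30c by 2.97 and 2.99 cycles, and mmu-miR-30d followed by a further 2.02 and 2.03 cycles. mmu-miR-30c had rank 6 of 111, 13 of 123 and 5 of 135 detected card A assays in the Ly6C high samples and 9 of 134, 9 of 151 and 5 of 118 in the Ly6C low samples. For mmu-miR-30b the ranks were 16, 12 and 9, then 11, 11 and 7. Both were thus among the earliest signals of the card in each sample. A Ct compared between assays also carries their amplification efficiency, so these ranks order signals and not molecule numbers.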

How the data were processed

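The authors deposited raw Ct values, a log2 scale with the sign turned, and values from which the U6 Ct of the same sample and card had been subtracted (ΔCt, also log2). The subtracted U6 value was checked and equals the mean of the first 2 of the 4 U6 wells listed per card. Another table holds the authors' within-mouse ratios between the subsets and was not used. The Ct software and its threshold are not given in the sources used here.

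Expression was −ΔCt. The 18 control wells were left out of the tests. Assays under 35 in at least 3 of 6 samples were tested, 201 of 750 (card A, 127, card B, 74), and undetected reactions kept their deposited value. The comparison of the subsets used limma 3.58.1 (functions lmFit and eBayes, no block, Benjamini-Hochberg, threshold 0.05) in R 4.3.3, after a test on simulated data. Single members were compared by exact permutation. Other steps used scipy 1.17.1, numpy 2.4.6, pandas 2.3.3 and matplotlib 3.10.9 under Python 3.11.15. The number of arrays and the 1-cycle steps limit the precision.

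The same number in the titles marks the same mouse, which pairs the samples. Deviations from the subset means correlated within mice 1, 2 and 3 at 0.32, 0.62 and 0.72 over the 201 assays and at −0.09, 0.41 and 0.41 on card A. Such correlations between different mice were not computed, so these values describe the samples and do not test the pairing.

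The members and lists were chosen with earlier results of these data known. Named miRNAs were the members, the opposite strands, assays with the same seed, controls, cell type markers, the 5 nearest patterns to each member detected in all samples, and assays with an unadjusted p under 0.05. Assays detected in all samples and on the step of mmu-miR-30c in mice 2 and 3 were named as well, as were some of those seen in mouse 2 alone. miR-181b was on the lymphocyte list and is not analysed here. Alternatives were other normalizations (none, global mean, card median, quantile), filters (Ct under 32 in at least 3 samples, under 35 in all 6, none), a floor of 35 cycles, undetected reactions as missing, the mouse as a block, eBayes with trend and robust, leaving out samples or mice, and leaving out card A of the Ly6C high sample of mouse 1. The exact tests, tallies, nearest patterns and fit without a filter that leave out this sample or mouse were added after seeing the data. Mature sequences and gene neighbours came from RefSeq tables for GRCm38.p6.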

Additional observations from a re-analysis of the deposited data

Results flagged for a closer look

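The plant control ath-miR159a, an assay for a sequence absent from mice and outside the comparisons above, was read at 33.97 in Ly6C low monocytes of mouse 2 on card B, against 40 on that card in the other samples. On the same card hsa-miR-30c-1#, the opposite strand of a miR-30c hairpin, had its earliest reading, 29.99. The family's main strands are on card A, where the plant control was undetected in all 6 samples. The part of this signal in the value of hsa-miR-30c-1# was not tested.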

How the results depend on the processing

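The counts of assays and of members past the adjusted threshold were 0 in limma under all 22 alternatives, with 0 members and 0 to 16 assays at an unadjusted p under 0.05. The adjusted p of both members stayed between 0.857 and 0.999. mmu-miR-30b kept its sign in 19 of 22 alternatives and mmu-miR-30c in 17. These tallies overstate how stable the sign is, since many alternatives could not turn it. Both miRNAs were under 35 in all 6 samples. The other filters, the floor, missing values, the block and the eBayes options therefore left the differences at −0.47 and −0.14. Some settings that leave out mouse 1 or its Ly6C high sample also repeat each other's values. Relative to the card median the differences were 1.99 and 2.32, which the Ly6C high sample of mouse 1 enters with a median at 40. With quantile normalization mmu-miR-30c was at 0.22, and the cause was not tested. With card A of the Ly6C high sample of mouse 1 as missing they were 0.054 and 0.20. Leaving out single samples or mice gave −0.95 to 0.054 for mmu-miR-30b and −0.48 to 0.20 for mmu-miR-30c, with 0.06 for the latter when Ly6C low monocytes of mouse 3 were left out, and 0 past the threshold each time.

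With the mouse as a replicate block the differences were −0.47 (standard error 1.17) and −0.14 (standard error 1.15), and without mouse 1 and with this block −0.12 and −0.14 (standard error 0.22 each). Pairing changed no call. Without a filter and without Ly6C high monocytes of mouse 1, a setting chosen after seeing the data, mmu-miR-30a was at 1.22, mmu-miR-30e at 1.21 and mmu-miR-30d at 2.23, against −0.81, −0.81 and 0.54 with all samples.

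Within-mouse differences moved with the scale. In raw Ct mmu-miR-30b and mmu-miR-30c were at −4.02 and −3.02 in mouse 1, −3.99 and −4.02 in mouse 2 and 1.01 and 1.00 in mouse 3. In mouse 2, mmu-miR-30a, mmu-miR-30d and mmu-miR-30e were at −4.00, −4.00 and −3.99. Relative to the card median the first pair was at 7.99 and 9.00, then −1.00 and −1.03, then −1.01 and −1.02, and the other 3 members were at −1.01, −1.01 and −1.00. These shifts follow from the U6 or median value subtracted. Values of undetected reactions rest on the floor of 40.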
